A study of Mus musculus with 6 samples.

Results

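Reg3a, Reg3b, Reg3g, Dmbt1, Pigr, Duox2, Duoxa2, Lypd8 and Lcn2, genes by which gut epithelium keeps bacteria off its surface or carries IgA into the lumen, were followed in single-cell RNA sequencing of mouse ileal crypt epithelium. They were taken by gene symbol, 9 of the 32285 genes in the count matrices, and each symbol matched 1 row. EpCAM-positive cells were sorted from dissociated ileal crypts of adult mice on the C57BL/6J background, matched for sex and age, and were captured in 6 libraries. The 3 Fpr2f/f libraries, labelled WT, came from mice whose Fpr2 gene, encoding a formyl peptide receptor, was flanked by recombination sites but left in place. The 3 Fpr2VKO libraries came from mice that carried the same floxed Fpr2 and, in addition, a Cre recombinase under the Villin promoter, which acts throughout the intestinal epithelium, so a difference seen in 1 cell class need not arise in that class.

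Reg3b and Reg3g encode secreted C-type lectins, Reg3g binding the peptidoglycan of Gram-positive bacteria, and Reg3a is a related member of the same family. Dmbt1 encodes a large secreted mucosal glycoprotein that aggregates bacteria, Lypd8 a surface-anchored and shed protein that binds flagella, and Lcn2 a lipocalin that withholds bacterial siderophores. Pigr encodes the receptor that carries dimeric IgA across the epithelial cell. Duox2 is a dual oxidase that releases hydrogen peroxide at the apical membrane, and Duoxa2 is the maturation factor it needs to leave the endoplasmic reticulum. Several of these genes are known to be induced by microbial signals and by the cytokines interleukin-22 and interleukin-17.

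In build GRCm38 the Reg3 genes lay together on chromosome 6, with Reg3b at chr6:78370657-78373466 and Reg3a at chr6:78380709-78383827 on the plus strand and Reg3g at chr6:78466269-78468872 on the minus strand. Duox2 (chr2:122279247-122298449, minus strand) and Duoxa2 (chr2:122298900-122302885, plus strand) stood head to head, with RefSeq start sites 673 bases apart. Dmbt1 lay at chr7:131032053-131121630, Pigr at chr1:130826684-130852249 and Lypd8 at chr11:58379043-58390728, all on the plus strand, and Lcn2 at chr2:32384633-32388252 on the minus strand. The sequences upstream of the 3 lectin genes and of Duoxa2 are shown because the lectins shared their class of highest level and Duoxa2 was the only one of the 9 genes that passed the test between groups. They come from RefSeq on GRCm38.p6, start up to 250 bases before the annotated start site, are written 5′ to 3′ on the strand of the gene, and leave out bases that another transcript uses as exon. Capitals mark matches on either strand to the letters TATAAA, to TTCNNNGAA, the core that STAT factors bind, or to the NF-kappaB consensus.
Reg3a (chr6:78380459-78380708): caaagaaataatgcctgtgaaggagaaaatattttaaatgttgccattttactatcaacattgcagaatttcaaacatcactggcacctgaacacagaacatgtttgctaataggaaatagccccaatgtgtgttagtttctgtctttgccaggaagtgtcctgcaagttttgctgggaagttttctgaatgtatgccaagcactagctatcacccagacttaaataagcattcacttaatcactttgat
Reg3b (chr6:78370707-78370860): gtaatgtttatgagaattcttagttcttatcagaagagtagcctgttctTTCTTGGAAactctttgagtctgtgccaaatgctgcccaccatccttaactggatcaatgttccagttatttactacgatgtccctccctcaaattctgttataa
Reg3g (chr6:78468875-78469124): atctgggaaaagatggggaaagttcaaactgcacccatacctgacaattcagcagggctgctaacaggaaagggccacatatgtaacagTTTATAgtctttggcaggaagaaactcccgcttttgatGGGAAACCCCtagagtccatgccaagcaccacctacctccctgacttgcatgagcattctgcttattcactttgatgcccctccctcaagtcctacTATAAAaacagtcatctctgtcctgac
Duoxa2 (chr2:122298650-122298899): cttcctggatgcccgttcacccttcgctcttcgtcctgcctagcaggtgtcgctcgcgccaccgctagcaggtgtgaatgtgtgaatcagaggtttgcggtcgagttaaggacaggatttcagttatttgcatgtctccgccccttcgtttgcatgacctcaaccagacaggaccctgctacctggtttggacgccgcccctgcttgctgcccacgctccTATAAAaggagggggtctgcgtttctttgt

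The Reg3b stretch held TTCTTGGAA 129 to 121 bases before its start, where 7.02% of 32851 RefSeq promoter windows of 250 bases hold a match to TTCNNNGAA. The Reg3g stretch held GGGAAACCCC 123 to 114 bases before its start, which reads as an NF-kappaB match on both strands, and 3.90% of the windows hold such a match. TATAAA, present in 12.4% of the windows, stood 29 to 24 bases before the start of Reg3b, where the printed stretch ends within it, 27 to 22 bases and, on the other strand as TTTATA, 161 to 156 bases before Reg3g and 30 to 25 bases before Duoxa2. No match to the 3 sets of letters lay in the windows of Reg3a, Pigr, Duox2, Lypd8 and Lcn2, and Dmbt1 had no entry. Aligned over their windows, Reg3b and Reg3g were identical at 68.9% of the alignment columns, Reg3a and Reg3b at 49.3%, and Duox2 and Duoxa2 at 47.7%. These matches describe letters and do not show binding.

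The libraries held 90142126 to 189516114 UMIs (unique molecular identifiers, each marking 1 captured transcript), and 17104 barcodes passed the limits of at least 1000 UMIs, at least 500 genes and at most 20% mitochondrial UMIs. The UMI and gene limits kept 12027, 13764 and 9736 barcodes in the Fpr2f/f and 22872, 11596 and 13007 in the Fpr2VKO libraries. Of these, the mitochondrial limit left 2643, 4722 and 2836 in the Fpr2f/f and 2267, 2768 and 1868 in the Fpr2VKO libraries. The part of this loss in differences between the groups was not tested beyond the other mitochondrial limits given below. After 428 likely doublets were removed, 16368 epithelial cells were kept in stem-like, TA-like (transit-amplifying), enterocyte-like, Paneth-like, goblet-like, EE-like (enteroendocrine) and tuft-like classes and in 1372 cells of unnamed clusters. Of these, 4069 cells (24.9%) were enterocyte-like. Classes were named from marker genes, with the 9 genes and the pathway lists below kept out of the clustering. Pairs of libraries shared 0 to 23 barcodes, at most 1.01% of the smaller library. Levels are given as CPM, the UMIs of a gene per 1000000 UMIs of the cells summed in 1 library and class. Fpr2 was listed at 0 in the epithelial cells and in the free RNA of every library, so the deletion could not be checked from its transcript. Myd88, an adaptor gene of broad use, picked here after its values were seen, was likewise listed at 0 in all 6 libraries, so such a 0 need not mean absence. The median UMIs per cell were higher in all 3 Fpr2VKO libraries than in all 3 Fpr2f/f libraries, at 2463, 3528 and 4764 against 4977, 12790 and 9940 UMIs in enterocyte-like cells.

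Across the cell classes, 8 of the 9 genes were higher in enterocyte-like cells than in the mean of the other 6 named classes in each of the 6 libraries, and Lcn2 was not. On the log2(CPM + 1) scale the difference was 4.88 for Reg3a, 4.23 for Reg3b and 3.10 for Reg3g. It was 2.15 for Lypd8, 1.79 for Dmbt1, 1.73 for Duoxa2, 1.57 for Duox2 and 1.46 for Pigr, and 0.07 for Lcn2, which was higher in 3 of the 6 libraries. The lectins thus stood furthest above the other classes, and Lcn2 was no enterocyte gene in these data. Enterocyte-like cells gave 23.9% of all epithelial UMIs but 84.9% of those of Reg3a, 75.05% of Reg3b and 60.5% of Reg3g, against 31.5% of those of Dmbt1 and 12.03% of those of Lcn2. The genes were grouped with such patterns known, so these levels are a description.

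**Figure D1:**
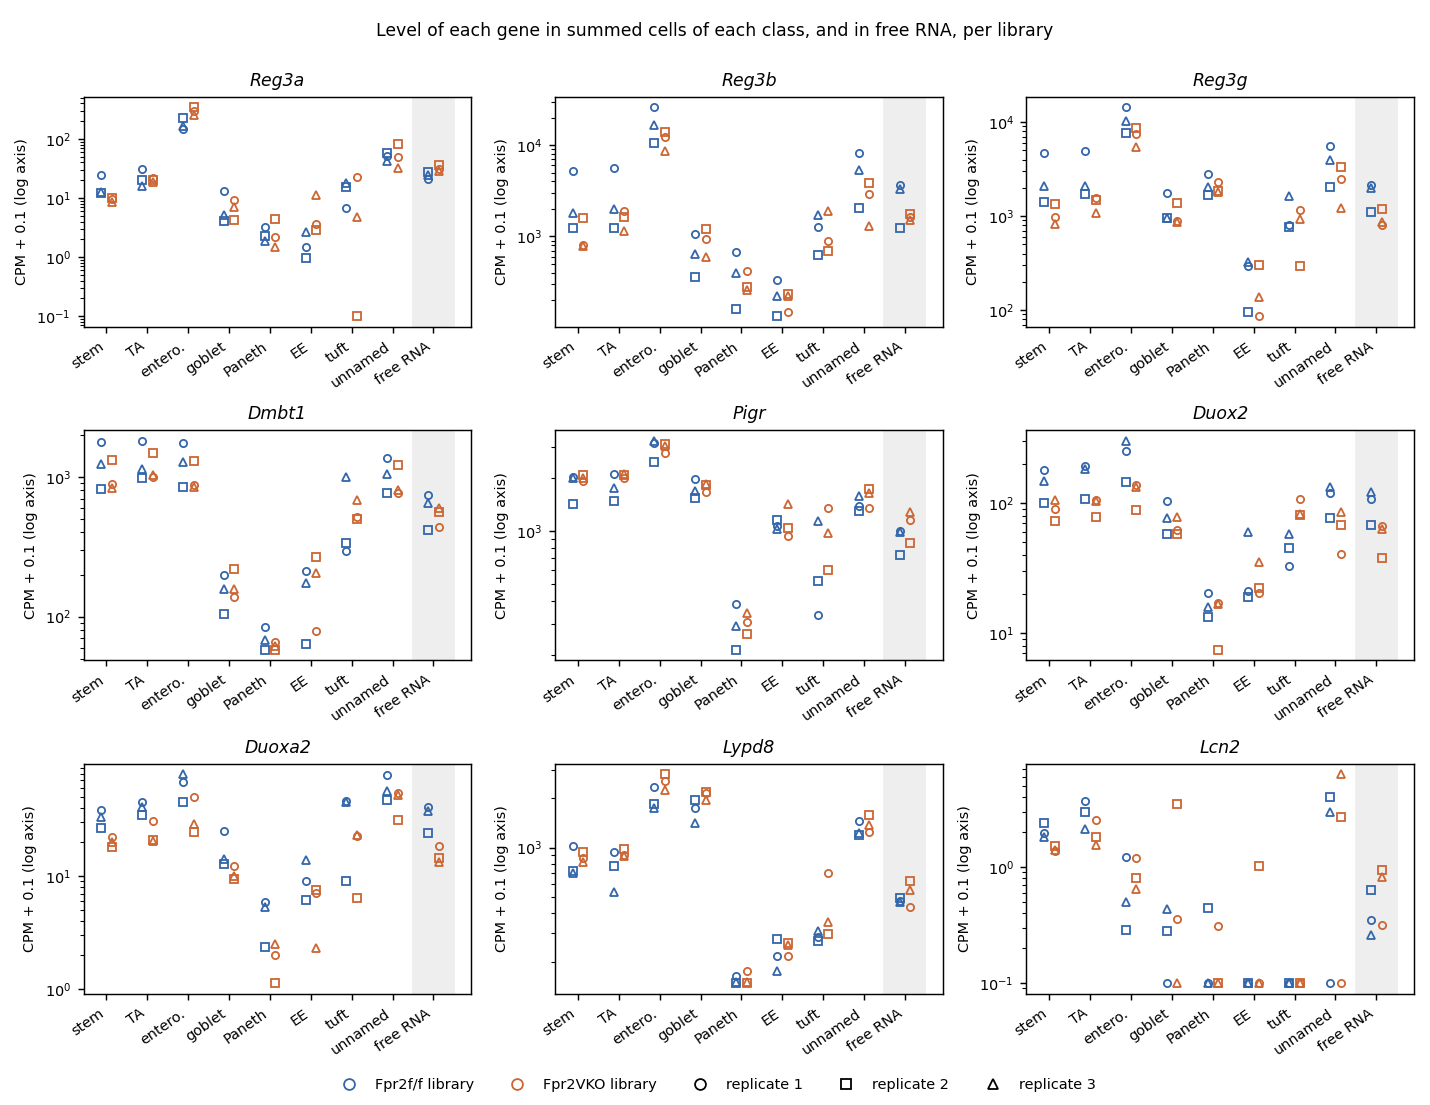
Level of each of the 9 genes (CPM + 0.1, log axis) in the summed cells of each class and, shaded, in free RNA of barcodes under 100 UMIs, with 1 point per library (blue Fpr2f/f, orange Fpr2VKO; the shape gives the replicate). The enterocyte-like points of Reg3a, Reg3b and Reg3g stand above the other named classes, while those of Dmbt1 lie among the stem-like and TA-like points and Paneth-like cells are low for every gene but Reg3g.

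Reg3a was concentrated in enterocyte-like cells. Its level there was 239.7 ± 75.7 CPM (mean ± SD, n = 6 libraries), 52.2 ± 16.6 CPM in the unnamed cells and 21.2 ± 5.25 CPM in TA-like cells, the next in order. Free RNA, summed over barcodes under 100 UMIs, held 28.04 ± 5.21 CPM of Reg3a, and TA-like and stem-like cells each exceeded the free RNA of their own library in 1 of 6 libraries. The unnamed cells did so in 6 and the remaining classes in none, down to 2.51 CPM in Paneth-like cells. Below TA-like cells, neighbours in the order had overlapping ranges.

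Reg3b followed the same order at its top, with 14710.0 ± 6203 CPM in enterocyte-like cells, 3968 in unnamed and 2251 in TA-like cells (n = 6). Stem-like cells held 1905, tuft-like cells 1185 and goblet-like cells 801 CPM, and Paneth-like and EE-like cells were lowest at 364 and 215 CPM. Only enterocyte-like cells exceeded the free RNA, 2190.3 ± 1031 CPM, in 6 of 6 libraries. For this and the other genes, a class below the level of free RNA need not owe its UMIs to free RNA alone. Immune-like cells, which should lack Reg3b, held 230.9 ± 77.2 CPM of it, below the means of stem-like and TA-like cells. After each cell was thinned to 2000 UMIs, 90.9% of enterocyte-like cells held a Reg3b UMI (mean of 6 libraries, 96.1% before thinning), against 29.8% of immune-like cells. Whether the UMIs of immune-like cells came from free RNA or from doublets left in was not tested.

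Reg3g differed from Reg3b in Paneth-like cells, the secretory cells of the crypt base. Its level was 8992 ± 3094 CPM in enterocyte-like cells, and 2145, 2077 and 1891 CPM in TA-like, Paneth-like and stem-like cells, which did not keep an order over the 6 libraries. Paneth-like cells held 2815, 1677 and 2020.0 CPM in the Fpr2f/f and 2288, 1852 and 1813 CPM in the Fpr2VKO libraries, above the free RNA of their library in 6 of 6. Reg3g in goblet-like cells was above free RNA in 2 of 6 libraries and in EE-like cells in none.

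The share of Reg3g among the UMIs of Reg3b and Reg3g together separated Paneth-like cells from every other class. It was 80.8% to 91.3% over the 6 libraries in Paneth-like cells and 35.7% to 42.2% in enterocyte-like cells, with no overlap. Stem-like cells lay at 46.3% to 54.5%, TA-like cells at 45.000% to 57.8% and goblet-like cells at 48.6% to 72.8%, and in free RNA the share was 32.9% to 47.4%. Stem-like, TA-like, goblet-like and Paneth-like cells were above the free RNA of their own library in 6 of 6 libraries. After thinning, 84.1% of Paneth-like cells held a Reg3g UMI and 46.98% a Reg3b UMI, against 19.5% and 29.8% of immune-like cells.

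**Figure D2:**
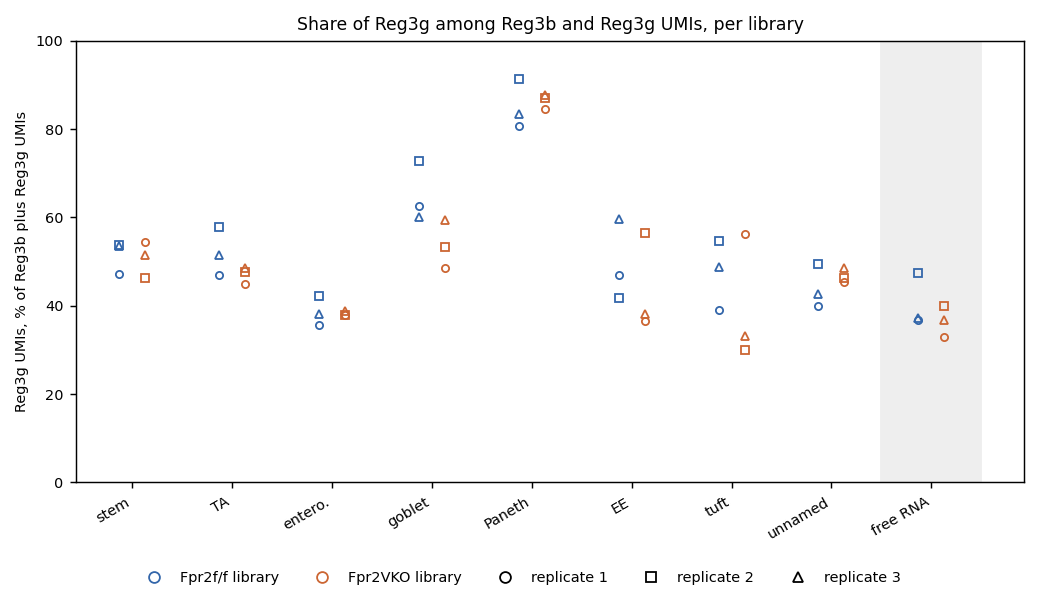
Reg3g UMIs as a percent of Reg3b plus Reg3g UMIs, in each class and, shaded, in free RNA, with 1 point per library (blue Fpr2f/f, orange Fpr2VKO). Paneth-like cells lie at 80.8% to 91.3%, above every other class, and enterocyte-like cells at 35.7% to 42.2%, close to free RNA.

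Dmbt1 was not particular to enterocyte-like cells. Its levels were 1245 ± 338 CPM in TA-like, 1152 ± 365 CPM in enterocyte-like and 1145 ± 381 CPM in stem-like cells (n = 6), with overlapping ranges, and each was above free RNA (566 CPM) in 6 of 6 libraries. It was low in the secretory lineages, at 167 CPM in EE-like, 163 in goblet-like and 65.9 in Paneth-like cells, all below free RNA in 6 of 6 libraries.

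Lypd8 was shared between enterocyte-like and goblet-like cells. Enterocyte-like cells held 2264 ± 408 CPM and goblet-like cells 1905 ± 287 CPM (n = 6), and the order between them held in 5 of 6 libraries with overlapping ranges. Stem-like and TA-like cells held 843 and 837 CPM. Paneth-like cells, at 156 CPM, and EE-like cells, at 234 CPM, were below the 507 CPM of free RNA in 6 of 6 libraries.

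Lcn2 was barely detected, with 266 UMIs in all epithelial cells and 32 UMIs in enterocyte-like cells. TA-like cells held 1.46 to 3.61 and stem-like cells 1.27 to 2.31 CPM over the 6 libraries, above free RNA in 6 of 6, while enterocyte-like cells held 0.186 to 1.12 CPM and tuft-like cells 0 UMIs. TA-like cells gave 50.4% of its epithelial UMIs. Lcn2 is also a granule protein of neutrophils. The 10 neutrophil markers summed to 0.889 to 1.79 CPM in all epithelial cells, lower in all 3 Fpr2VKO libraries (1.11 ± 0.262 against 1.59 ± 0.184 CPM, n = 3 each), and to 0.302 to 0.983 CPM in enterocyte-like cells, where S100a8, S100a9 and Retnlg were at 0. In free RNA they summed to 0.609 to 3.04 CPM, and the groups overlapped. Over all epithelial cells 1 of the 10 passed the filter on low counts. The list includes Camp, the gene of CRAMP, which the paper describes as secreted by crypt cells.

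Measured against the mean of the other 6 named classes, Pigr had the smallest excess in enterocyte-like cells of the 8 genes, although it was above the next class in 6 of 6 libraries. It was 2953 ± 302 CPM in enterocyte-like cells, which did not overlap TA-like cells (1922 ± 252 CPM, n = 6), and stem-like and goblet-like cells followed at 1905 and 1754 CPM. The ranges of TA-like, stem-like and goblet-like cells overlapped. Paneth-like cells, at 300.4 CPM, were below free RNA (1001 CPM) in 6 of 6 libraries. After thinning, 96.998% of enterocyte-like and 22.2% of immune-like cells held a Pigr UMI. Its cargo comes from plasma cells, whose list of 8 markers was carried by Xbp1 (112 to 158 CPM in enterocyte-like cells), which epithelium also expresses. Igha was at most 0.402 and Jchain at most 0.805 CPM there, and Igkc, Mzb1, Iglc2 and Tnfrsf17 were listed at 0.

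Duox2 and Duoxa2 were high in enterocyte-like and in crypt progenitor classes. Duox2 stood at 177 ± 82.6 CPM in enterocyte-like, 129 ± 46.9 CPM in TA-like and 116 ± 40.02 CPM in stem-like cells (n = 6), each above free RNA (77.6 CPM) in 6 of 6 libraries. Duoxa2 was 49.2 ± 21.7 CPM in enterocyte-like and 31.996 ± 10.2 CPM in TA-like cells. The unnamed cells had the highest mean, 52.7 ± 15.01 CPM, above enterocyte-like cells in 5 of 6 libraries with overlapping ranges. In stem-like cells Duoxa2 (26.3 ± 8.02 CPM) exceeded free RNA (24.8 CPM) in 4 of 6 libraries. Goblet-like, EE-like and Paneth-like cells were below free RNA in 6 of 6 libraries for Duoxa2. Of the exonic bases of Duoxa2, 682 (42.8%) overlap Duoxa1 on the other strand, whose own level in enterocyte-like cells was 0.415 CPM, and 6.05% of the 50-base stretches of Duox2 also occur in Duox1, at 0.610 CPM.

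Within the enterocyte-like class the genes split over its 4 clusters, numbered 2, 4, 10 and 12. Cluster 2 (1406 cells) was led by Creb3l3 and Areg among others, cluster 4 (1269 cells) by Fabp6 and Slc10a2, genes of ileal bile acid uptake, cluster 10 (887 cells) by Reg1 and Fabp1, and cluster 12 (507 cells) by Clca4a, Ada and Apoa4. The median UMIs per cell were 2712 and 3400.0 in clusters 2 and 4 and 30351 and 27783 in clusters 10 and 12.

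Reg3a was highest in cluster 10 (315 ± 106 CPM, mean ± SD of 6 libraries), then cluster 12 (191 ± 29.97 CPM), and low in clusters 2 and 4 (91.2 and 53.4 CPM). Reg3b was highest in cluster 12 (22345 ± 10365 CPM) and cluster 10 (14908 ± 6513 CPM), against 5505 CPM in cluster 4 and 3935 in cluster 2. Reg3g took the same order, from 13526 CPM in cluster 12 to 1761 in cluster 2. On average the lectins thus followed the pair of clusters with deep cells.

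Lypd8 also split by these clusters, at 2797 and 2349.5 CPM in clusters 10 and 12 and 464 and 535 CPM in clusters 4 and 2, with no overlap between the pairs. The oxidase genes did not. Duox2 was 294 CPM in cluster 4 and 279 in cluster 12 but 131 in cluster 2 and 117 in cluster 10, and Duoxa2 was 88.3, 73.7, 50.6 and 25.6 CPM in clusters 12, 4, 2 and 10. Cluster 10, with the highest mean of Reg3a, thus had the lowest mean of both oxidase genes, although its ranges for them overlapped those of cluster 2. Pigr (2079 to 3271 CPM) and Dmbt1 (619 to 1314 CPM) spanned a narrower range.

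**Figure D3:**
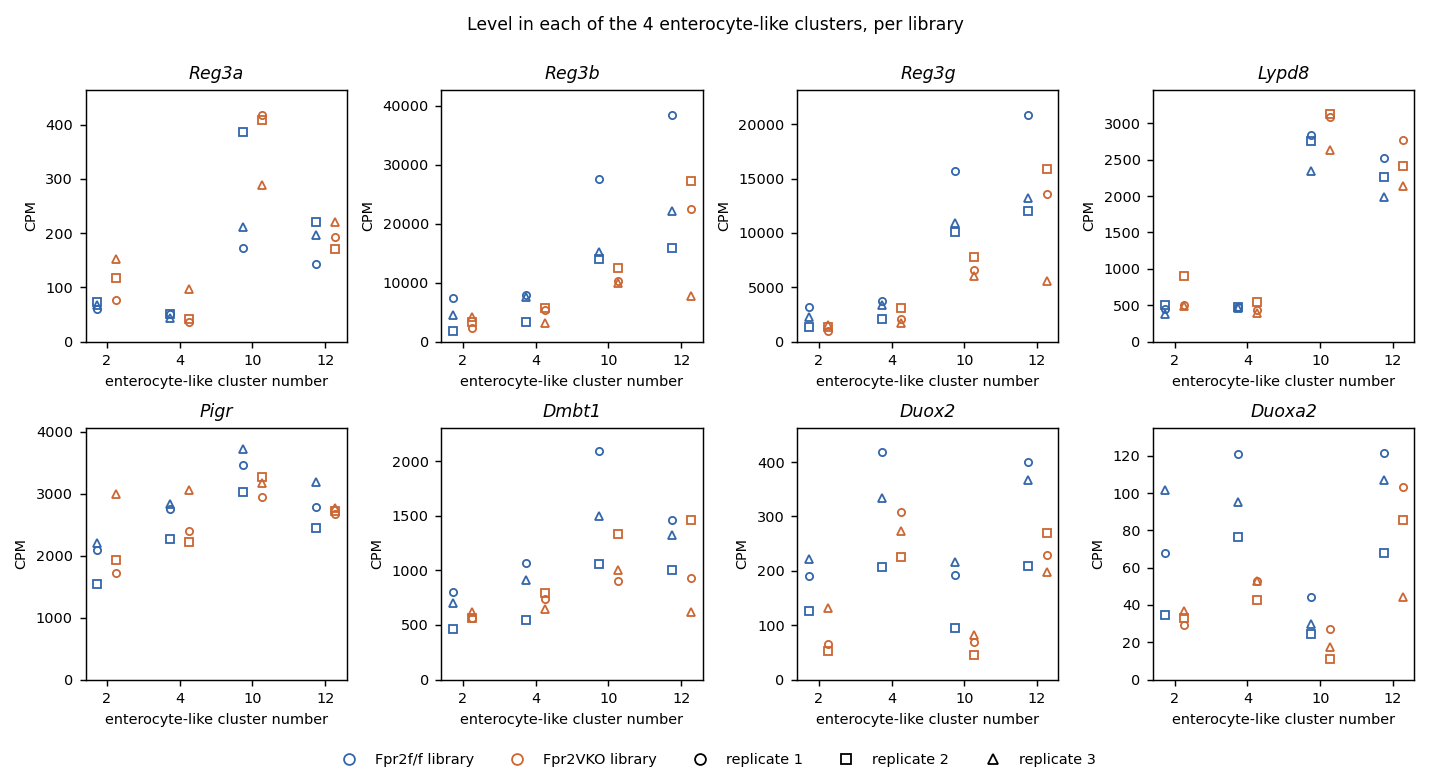
Level (CPM, linear axis from 0) of 8 of the genes in each of the 4 enterocyte-like clusters, with 1 point per library (blue Fpr2f/f, orange Fpr2VKO). Reg3a peaks in cluster 10 at 315 CPM, where Duoxa2 is lowest at 25.6 CPM, and Lypd8 is high in clusters 10 and 12 alone.

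Between single enterocyte-like cells thinned to 5000 UMIs, Reg3b and Reg3g rose and fell together, with Spearman's rho of 0.727 to 0.883 within the 6 libraries. For Reg3a and Reg3b it was 0.180 to 0.427, for Duox2 and Duoxa2 0.146 to 0.282, and for Pigr and Reg3b -0.0656 to 0.328. Cells of 1 library share its free RNA, so these values are descriptions. Across the 48 sums of class and library, the gene whose levels were most like those of Reg3a was Dgat1 (rho 0.94, followed by Mall and Mylk), of Reg3b Acot11 (0.92, then Ldha and Tprn) and of Lypd8 Fabp2 (0.98, then S100a10 and Slc7a7). Reg3g was nearest to Reg3b (0.76), Reg3a (0.67) and Srxn1 (0.67). For Dmbt1 the nearest were Cd302, Tfrc and Coq5, for Pigr Stard4, Canx and Cdh17, for Duox2 Ano9, Kitl and Irf8, for Duoxa2 Cldn7, Uqcr11 and Reg3b (0.87 to 0.94 over these 4 genes), and for Lcn2 Hnf4a, Psme3 and Rdh11 (0.73 to 0.75). Sums of 1 library share their depth and free RNA.

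Between Fpr2f/f and Fpr2VKO libraries, 1 of the 9 genes passed the edgeR test in 1 class: Duoxa2 was lower in Fpr2VKO stem-like cells. All 9 genes passed the filter on low counts in all epithelial cells and in stem-like and TA-like cells, 8 in enterocyte-like, Paneth-like, goblet-like and unnamed cells (all but Lcn2), and 6 in EE-like and tuft-like cells. In stem-like cells 1 of 9 was called at an adjusted p under 0.05, against 0.231% of the 11681 genes tested, of which 0.0856% were lower in Fpr2VKO. The count was 0 in all epithelial cells (0.0182% of 16477 genes), TA-like cells (0.0314% of 12732), enterocyte-like cells (0.0164% of 12203), Paneth-like cells (0.249% of 9247), goblet-like cells (0.149% of 10761), EE-like cells (0% of 9488), tuft-like cells (0.261% of 3452) and unnamed cells (0.12% of 7499). At an unadjusted p under 0.05 the edgeR test gave 4 of 9 genes in all epithelial cells (8.84% of genes tested), 3 of 9 in stem-like (9.24%) and TA-like cells (9.07%) and 4 of 8 in enterocyte-like cells (9.33%). It gave 1 of 8 in Paneth-like (8.37%), goblet-like (8.47%) and unnamed cells (7.44%), 2 of 6 in tuft-like cells (9.41%) and 0 of 6 in EE-like cells, where 261 genes (2.75%) did. The 9 genes were chosen with earlier results of these data known, so these shares are descriptions. DESeq2 called 2 of the genes in all epithelial cells (0.336% of all genes it tested), 2 in stem-like cells (0.173%), 3 in enterocyte-like cells (0.243%) and 0 in the other classes.

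Duoxa2 in stem-like cells was 38.1, 26.5 and 33.4 CPM in the Fpr2f/f and 22.2, 17.8 and 19.7 CPM in the Fpr2VKO libraries. All 3 Fpr2VKO libraries were lower than all 3 Fpr2f/f libraries (32.7 ± 5.81 against 19.9 ± 2.20 CPM, mean ± SD, n = 3 each; log2 fold change -0.76, SE 0.16, adjusted p = 0.0493). The call was at the edge of the threshold: the direction held in 15 of 15 alternatives, but the adjusted p was under 0.05 in 6 of them and ranged from 0.00220 to 0.998. It was lost when Fpr2f/f replicate 1 (adjusted p = 0.0582) or 3 (0.107) or Fpr2VKO replicate 1 (0.0923), 2 (0.223) or 3 (0.144) was left out. With a limit of 10% mitochondrial UMIs the log2 fold change was -0.29. Duoxa2 in free RNA was also lower in all 3 Fpr2VKO libraries (40.97, 23.9 and 37.8 CPM in the Fpr2f/f and 18.3, 14.2 and 13.3 CPM in the Fpr2VKO libraries), near the level in stem-like cells, and the part of free RNA in the stem-like difference was not tested. Stem-like cells of the groups differed in other measures too: the median UMIs per cell were 3285, 4478 and 4305 in Fpr2f/f against 7379, 7426 and 9597 in Fpr2VKO libraries, and the stem markers summed to 3007 ± 521 against 6141 ± 199.8 CPM (Fpr2f/f against Fpr2VKO, n = 3 each), with no overlap in either, and their part in the Duoxa2 difference was not tested beyond the alternatives above. The class joined clusters 0 and 5 in proportions that differed by group: cluster 5, led by Olfm4 and with the deeper cells, took these shares of stem-like cells by library: 40.95%, 18.4% and 33.8% in Fpr2f/f and 47.5%, 55.7% and 59.4% in Fpr2VKO, with no overlap. Within cluster 5 Duoxa2 was 41.2, 31.1 and 36.5 CPM in the Fpr2f/f and 24.3, 18.03 and 20.04 CPM in the Fpr2VKO libraries, again without overlap, and within cluster 0 it was 15.3, 18.4 and 21.99 CPM in the Fpr2f/f and 8.004, 15.6 and 16.3 CPM in the Fpr2VKO libraries, with overlap. For Duox2, Reg3a and Reg3g, whose stem-like values follow, the groups were apart within cluster 5, while within cluster 0 they were apart for Duox2 and overlapped for both lectins.

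Duoxa2 was estimated lower in Fpr2VKO in each of the other classes tested too, without passing the test. TA-like cells held 45.1, 34.3 and 41.03 CPM in the Fpr2f/f and 30.4, 20.9 and 20.2 CPM in the Fpr2VKO libraries, again without overlap (log2 fold change -0.74, SE 0.17, adjusted p = 0.251), and goblet-like cells held 25.1, 12.8 and 13.9 CPM in the Fpr2f/f and 12.1, 9.35 and 9.997 CPM in the Fpr2VKO libraries, also without overlap (log2 fold change -0.70, SE 0.25, adjusted p = 0.347). The share of cluster 1 among goblet-like cells was 72.8%, 73.9% and 73.8% in Fpr2f/f and 81.9%, 85.7% and 84.4% in Fpr2VKO, by library, with no overlap, and Duoxa2 did not overlap between the groups within cluster 1 (25.7, 12.99 and 14.01 CPM in the Fpr2f/f and 11.7, 9.18 and 10.4 CPM in the Fpr2VKO libraries) but did within cluster 14, the smaller one. With 1 library left out the goblet-like log2 fold change of Duoxa2 ran from -0.90 to -0.41. The shares of the 4 TA-like clusters overlapped between the groups, and Duoxa2 did not overlap within clusters 6 and 8 but did within 3 and 7. In TA-like cells the stem markers summed to 1824 ± 324 against 3414 ± 385 CPM and the enterocyte markers to 551 ± 95.05 against 850.1 ± 24.1 CPM (Fpr2f/f against Fpr2VKO, n = 3 each), with no overlap in either. The TA markers (1929.7 ± 84.4 against 2095 ± 111 CPM) and the neutrophil markers (2.50 ± 1.63 against 0.961 ± 0.174 CPM) did not overlap either, the other marker lists did, and the part of these lists in the TA-like differences of Duoxa2, Duox2 and Reg3g was not tested. At the 10% mitochondrial limit TA-like Duoxa2 turned to 0.12 on the log2 scale. In enterocyte-like cells the values were 68.2, 44.98 and 79.7 CPM in the Fpr2f/f and 49.6, 24.3 and 28.6 CPM in the Fpr2VKO libraries, where Fpr2VKO replicate 1 lay above Fpr2f/f replicate 2 (log2 fold change -0.90, SE 0.32, adjusted p = 0.477), and at the 10% mitochondrial limit the log2 fold change turned to 0.26. Cluster 10, the cluster with the lowest mean of both oxidase genes, was a larger part of enterocyte-like cells in all 3 Fpr2VKO libraries (14.7% ± 6.46 against 35.5% ± 11.7, Fpr2f/f against Fpr2VKO, n = 3 each), and its part in the Duoxa2 and Duox2 differences over the class was not tested beyond the values within clusters. Within cluster 4 the groups did not overlap (121, 76.7 and 95.4 CPM in the Fpr2f/f and 53.1, 42.8 and 53.1 CPM in the Fpr2VKO libraries), and within clusters 2, 10 and 12 they did. Over all epithelial cells Duoxa2 was 43.3, 27.03 and 43.2 CPM in the Fpr2f/f and 26.7, 16.1 and 18.04 CPM in the Fpr2VKO libraries, with no overlap (log2 fold change -0.85, SE 0.19, adjusted p = 0.288). Duoxa2 passed in these classes under some alternatives. In TA-like cells it passed with no filter on low counts (adjusted p = 0.00150), with the replicate block (0.0396) and without Fpr2f/f replicate 1 (0.0497). Over all epithelial cells it passed with no filter (adjusted p = 0.00170), the block (0.02005) and DESeq2 (0.00711), and in enterocyte-like cells with no filter (adjusted p = 1.36e-05) and DESeq2 (0.0487). In such sums over all cells, fewer cells of a type and less RNA per cell cannot be told apart. Over all epithelial cells the stem markers summed to 1167 ± 188 against 2185 ± 44.6 CPM (Fpr2f/f against Fpr2VKO, n = 3 each). The enterocyte markers summed to 1693 ± 149.7 against 2445 ± 459 CPM. Neither overlapped, nor did the neutrophil markers given above, while the other marker lists did. Their part in the Duoxa2 difference was not tested. The 39681 barcodes with 20% to 40% mitochondrial UMIs, which enter only the alternatives with a 40% limit, held 49.98, 30.3 and 46.5 CPM in the Fpr2f/f and 26.9, 22.9 and 17.7 CPM in the Fpr2VKO libraries, with no overlap either.

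Duox2, the oxidase itself, was also estimated lower in each class but tuft-like cells, with log2 fold changes from -0.96 in enterocyte-like to -0.25 in Paneth-like cells, and no class passed the test. In enterocyte-like cells it was 252, 147 and 305 CPM in the Fpr2f/f and 137, 89.02 and 132 CPM in the Fpr2VKO libraries, lower in all 3 Fpr2VKO libraries (234 ± 80.5 against 119.6 ± 26.6 CPM, n = 3 each; log2 fold change -0.96, SE 0.26, adjusted p = 0.374). In TA-like cells the groups did not overlap either (193, 108 and 182 CPM in the Fpr2f/f and 106, 77.9 and 105 CPM in the Fpr2VKO libraries; log2 fold change -0.74, SE 0.19, adjusted p = 0.262), and the log2 fold change was -0.033 at the 10% mitochondrial limit. Stem-like cells overlapped at 1 point, Fpr2VKO replicate 3 (179.6, 101 and 149 CPM in the Fpr2f/f and 90.1, 72.6 and 107 CPM in the Fpr2VKO libraries; log2 fold change -0.73, SE 0.17, adjusted p = 0.141). Whether Duox2 passed depended on the setting. In enterocyte-like cells it passed in 4 of 15 alternatives: DESeq2 (adjusted p = 0.00480), and edgeR without Fpr2f/f replicate 2 (adjusted p = 0.0345), with the replicate block (adjusted p = 0.0119) and with no filter on low counts (adjusted p = 1.45e-07). In stem-like cells it passed in the same 4 settings, and in TA-like cells with the block and with no filter. Within cluster 10 Duox2 was 192, 94.6 and 216 CPM in the Fpr2f/f and 69.9, 45.7 and 82.1 CPM in the Fpr2VKO libraries, with no overlap, and within clusters 2, 4 and 12 the groups overlapped. Free RNA was lower in Fpr2VKO here too (108, 67.8 and 121 CPM in the Fpr2f/f and 67.1, 37.6 and 63.4 CPM in the Fpr2VKO libraries).

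In tuft-like cells Duox2 pointed the other way, at 32.8, 45.03 and 58.1 CPM in the Fpr2f/f and 109, 81.8 and 83.2 CPM in the Fpr2VKO libraries, from 98 UMIs in all and 5 in the thinnest library (log2 fold change 0.89, SE 0.37, adjusted p = 0.481), and at the 40% mitochondrial limit the log2 fold change was -0.45. Of the 6 genes tested there it was the 1 whose groups did not overlap. The share of tuft-like cells with a Duox2 UMI after thinning to 2000 UMIs did overlap. It was 3.57%, 3.03% and 9.09% in the Fpr2f/f and 7.5%, 0% and 6.67% in the Fpr2VKO libraries, with 20 cells in the thinnest library.

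Of the 3 genes estimated higher in Fpr2VKO enterocyte-like cells (Reg3a, Lypd8 and Pigr, none of which passed the test), Reg3a had the largest log2 fold change. Its levels were 146, 229.9 and 168 CPM in the Fpr2f/f and 297, 346 and 251 CPM in the Fpr2VKO libraries, with all Fpr2VKO libraries above all Fpr2f/f libraries (181 ± 43.5 against 298 ± 47.4 CPM, n = 3 each), and the difference did not pass the test (log2 fold change 0.72, SE 0.19, adjusted p = 0.305). Over 15 alternatives its direction held in 15, with adjusted p from 0.000198 to 0.863 and under 0.05 in 2, DESeq2 (0.0126) and no filter on low counts. The same order stood in all epithelial cells (49.5, 60.8 and 59.9 CPM in the Fpr2f/f and 75.5, 92.2 and 68.6 CPM in the Fpr2VKO libraries; log2 fold change 0.52, SE 0.16, adjusted p = 0.416), where the 10% mitochondrial limit turned the log2 fold change to -0.19, and in free RNA (20.7, 27.1 and 24.8 CPM in the Fpr2f/f and 31.1, 35.8 and 28.8 CPM in the Fpr2VKO libraries). Over all epithelial cells Reg3a passed in 1 of 14 alternatives. The enterocyte and stem markers over all epithelial cells, given above, were also higher in all 3 Fpr2VKO libraries, and their part in this Reg3a difference was not tested. The share of enterocyte-like cells with a Reg3a UMI after thinning to 2000 UMIs was 14.5% to 28.6% over the libraries, and the groups did not overlap.

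The makeup of the enterocyte-like class differed between the groups. Cluster 10, the cluster with most Reg3a, made up 21.8%, 9.15% and 13.1% of Fpr2f/f and 24.2%, 47.6% and 34.7% of Fpr2VKO enterocyte-like cells, by library. These are shares of cells, while CPM over the class weights cells by their UMIs. The 10 enterocyte markers summed to 5164 ± 425 CPM in Fpr2f/f and 8171 ± 1814 CPM in Fpr2VKO enterocyte-like cells (n = 3 each), with no overlap, and cells were deeper in Fpr2VKO, as given above. Within cluster 10 Reg3a was 173, 386 and 211 CPM in the Fpr2f/f and 418, 408 and 289.6 CPM in the Fpr2VKO libraries and the groups overlapped, as they did within clusters 12 and 4. Within cluster 2 they did not (60.03, 72.5 and 67.1 CPM in the Fpr2f/f and 77.5, 118 and 152 CPM in the Fpr2VKO libraries). The part of this makeup and depth in the difference over the class was not tested beyond these values.

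In stem-like cells Reg3a had the opposite sign, 24.3, 11.9 and 12.7 CPM in the Fpr2f/f and 9.69, 9.97 and 8.46 CPM in the Fpr2VKO libraries (log2 fold change -0.83, SE 0.24, adjusted p = 0.231). These levels were below the free RNA of their own library in 5 of 6 libraries, and with doublets kept the log2 fold change was 0.027. Fpr2f/f replicate 1 was the highest library, and with 1 library left out the log2 fold change ran from -0.99 to -0.44. The stem-like difference passed in 1 of 15 alternatives.

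Reg3b and Reg3g were lower on average in Fpr2VKO enterocyte-like cells, but Fpr2f/f replicate 1 carried much of that. Reg3b was 26084, 10541 and 16511 CPM in the Fpr2f/f and 12378, 14086 and 8660.3 CPM in the Fpr2VKO libraries, with overlap (log2 fold change -0.59, SE 0.40, adjusted p = 0.707). Reg3g was 14468, 7700.4 and 10219 CPM in the Fpr2f/f and 7527, 8563 and 5472 CPM in the Fpr2VKO libraries, also with overlap (log2 fold change -0.57, SE 0.27, adjusted p = 0.559). Of 15 alternatives, Reg3g passed in 1 and Reg3b in 0. Fpr2f/f replicate 1 was the highest of the 6 libraries for each lectin in 6 of the 8 classes, and without it the log2 fold changes in enterocyte-like cells were -0.16 for Reg3b and -0.28 for Reg3g, so the lean to lower values shrank without that library. Its free RNA was highest as well, at 3669 CPM of Reg3b against 1238 to 3320.2 CPM in the others. Within cluster 10 both lectins were lower in all 3 Fpr2VKO libraries (Reg3b 27521, 13984 and 15267 CPM in the Fpr2f/f and 10233, 12449.8 and 9995 CPM in the Fpr2VKO libraries; Reg3g 15653, 10097 and 10898 CPM in the Fpr2f/f and 6544, 7746 and 6057 CPM in the Fpr2VKO libraries), and within clusters 2, 4 and 12 they overlapped. The share of Reg3g among their UMIs overlapped between the groups in each class except goblet-like cells, where it was 62.6%, 72.8% and 59.996% in Fpr2f/f and 48.6%, 53.3% and 59.3% in Fpr2VKO, by library. The proportions of the goblet-like clusters differed by group, as given above, and the share of Reg3g did not overlap within cluster 1 (63.9%, 73.3% and 61.1% in Fpr2f/f and 48.7%, 53.4% and 59.8% in Fpr2VKO) but did within cluster 14.

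Away from enterocyte-like cells, Reg3g did not overlap between the groups in stem-like cells (4685, 1423 and 2069.7 CPM in the Fpr2f/f and 972, 1362 and 834 CPM in the Fpr2VKO libraries; log2 fold change -1.41, SE 0.53, adjusted p = 0.548) and in TA-like cells (4924, 1709.8 and 2104 CPM in the Fpr2f/f and 1562, 1490.1 and 1080.5 CPM in the Fpr2VKO libraries; log2 fold change -1.08, SE 0.41, adjusted p = 0.518). Fpr2f/f replicate 1 was the highest library in both, and without it the log2 fold changes were -0.78 in stem-like and -0.46 in TA-like cells, while at the 10% mitochondrial limit the TA-like value turned to 0.49. Of 15 alternatives, Reg3g passed in 1 in TA-like and in 0 in stem-like cells. Free RNA of Reg3g was 2128, 1118 and 1974 CPM in the Fpr2f/f and 798, 1186 and 875 CPM in the Fpr2VKO libraries, lower on average in Fpr2VKO, and its part in these differences was not tested. In Paneth-like cells, where it was above free RNA, its groups overlapped and the sign of the difference changed with the setting (log2 fold change -0.06, SE 0.17, adjusted p = 0.950).

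**Figure D4:**
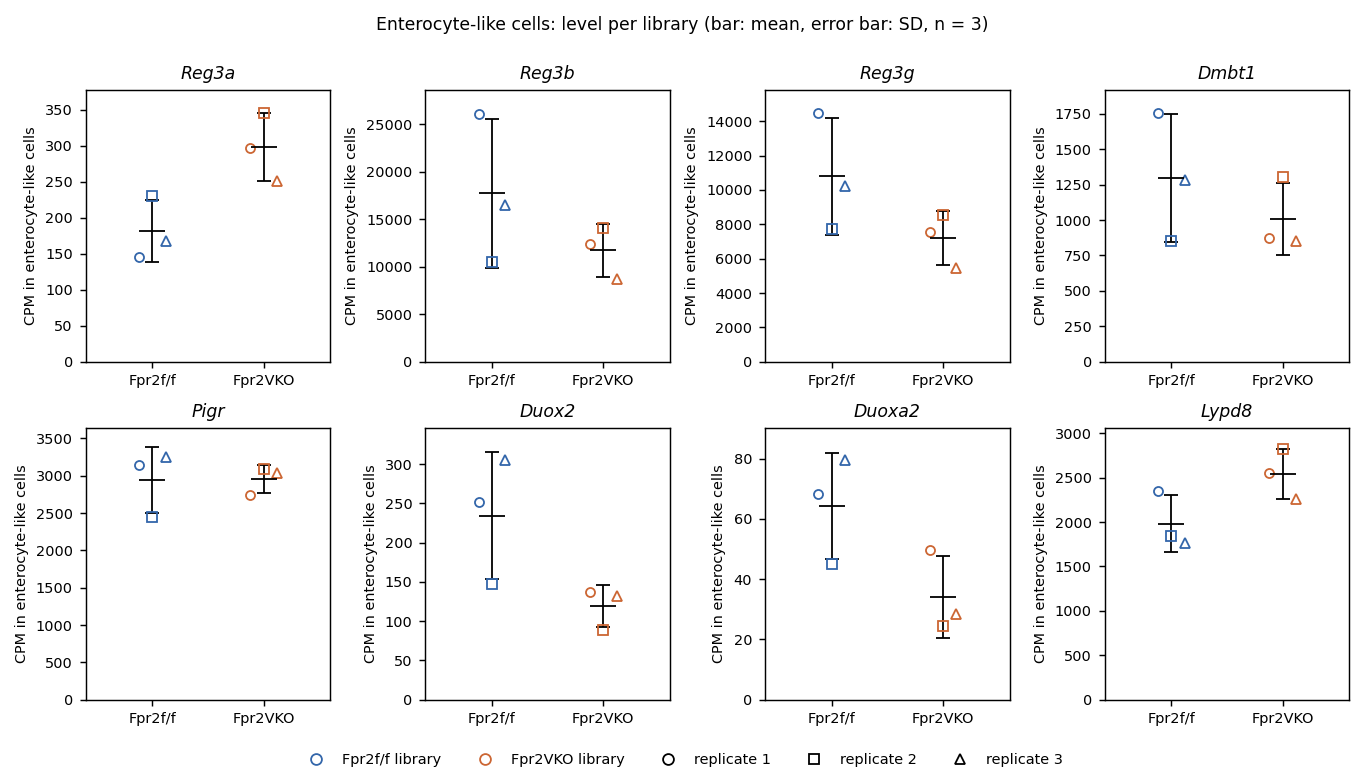
Level (CPM, linear axis from 0) of 8 of the genes in enterocyte-like cells, with 1 point per library, the mean as a bar and the SD as an error bar (n = 3 per group). Only for Reg3a, higher in Fpr2VKO, and Duox2, lower in Fpr2VKO, do the 3 points of each group not overlap, and neither passed the test.

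Pigr, Lypd8 and Dmbt1 had the smallest estimates in enterocyte-like cells. Pigr in enterocyte-like cells was 3146, 2442 and 3251 CPM in the Fpr2f/f and 2748, 3092 and 3040.2 CPM in the Fpr2VKO libraries (log2 fold change 0.02, SE 0.13, adjusted p = 0.982), and its direction changed with the setting. Lypd8 was 2347, 1844 and 1759 CPM in the Fpr2f/f and 2553, 2822 and 2260.4 CPM in the Fpr2VKO libraries, higher on average in Fpr2VKO with overlap (log2 fold change 0.37, SE 0.15, adjusted p = 0.477), and in goblet-like cells, its other main site, 1739, 1959.6 and 1425 CPM in the Fpr2f/f and 2145, 2205 and 1958 CPM in the Fpr2VKO libraries (log2 fold change 0.24, SE 0.13, adjusted p = 0.642). Dmbt1 was 1757, 849 and 1282 CPM in the Fpr2f/f and 873, 1301 and 849 CPM in the Fpr2VKO libraries (log2 fold change -0.35, SE 0.31, adjusted p = 0.777). With 1 library left out its log2 fold change ran from -0.60 to -0.036. For each of these 3 genes the groups overlapped in every epithelial class.

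Counted over the genes tested, those whose groups did not overlap were mostly lower in Fpr2VKO in the crypt classes. In stem-like cells 4 of 9 (Reg3a, Reg3g, Duoxa2 and Lcn2) were lower in all 3 Fpr2VKO libraries, against 5.05% of all genes tested, and 0 were higher, against 9.43%. Lcn2 rested there on 62 UMIs in all, 6 to 15 per library (log2 fold change -0.61, SE 0.43, adjusted p = 0.753 by edgeR). In TA-like cells 3 of 9 (Reg3g, Duox2 and Duoxa2) were lower, against 6.5%, and 0 higher, against 6.54%. The other classes held at most 1 gene in each direction. In enterocyte-like cells 1 of 8 was lower (7.77% of all genes tested) and 1 higher (6.91%), and over all epithelial cells 1 of 9 was lower (10.3%) and 1 higher (3.16%). In goblet-like cells 1 of 8, Duoxa2, was lower (4.03%) and 0 higher (10.2%), and in tuft-like cells 0 of 6 were lower (4.35%) and 1 higher (11.1%). Paneth-like cells had 0 of 8 in either direction (4.66% lower and 3.16% higher), EE-like cells 0 of 6 (4.33% and 3.63%) and unnamed cells 0 of 8 (5.49% and 6.21%). The median log2 fold change was -0.46 over the 8 genes tested in enterocyte-like cells and -0.73 over the 9 in stem-like cells, against -0.0079 and -0.0033 over all genes tested. It was -0.60 in TA-like, -0.30 in unnamed and -0.28 in all epithelial cells. The median was -0.090 in Paneth-like, -0.060 in EE-like, -0.026 in goblet-like and 0.21 in tuft-like cells. Over all genes tested these medians ran from -0.0060 to 0.0074. The genes were chosen with earlier results of these data known, so these counts and medians are descriptions.

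**Figure D5:**
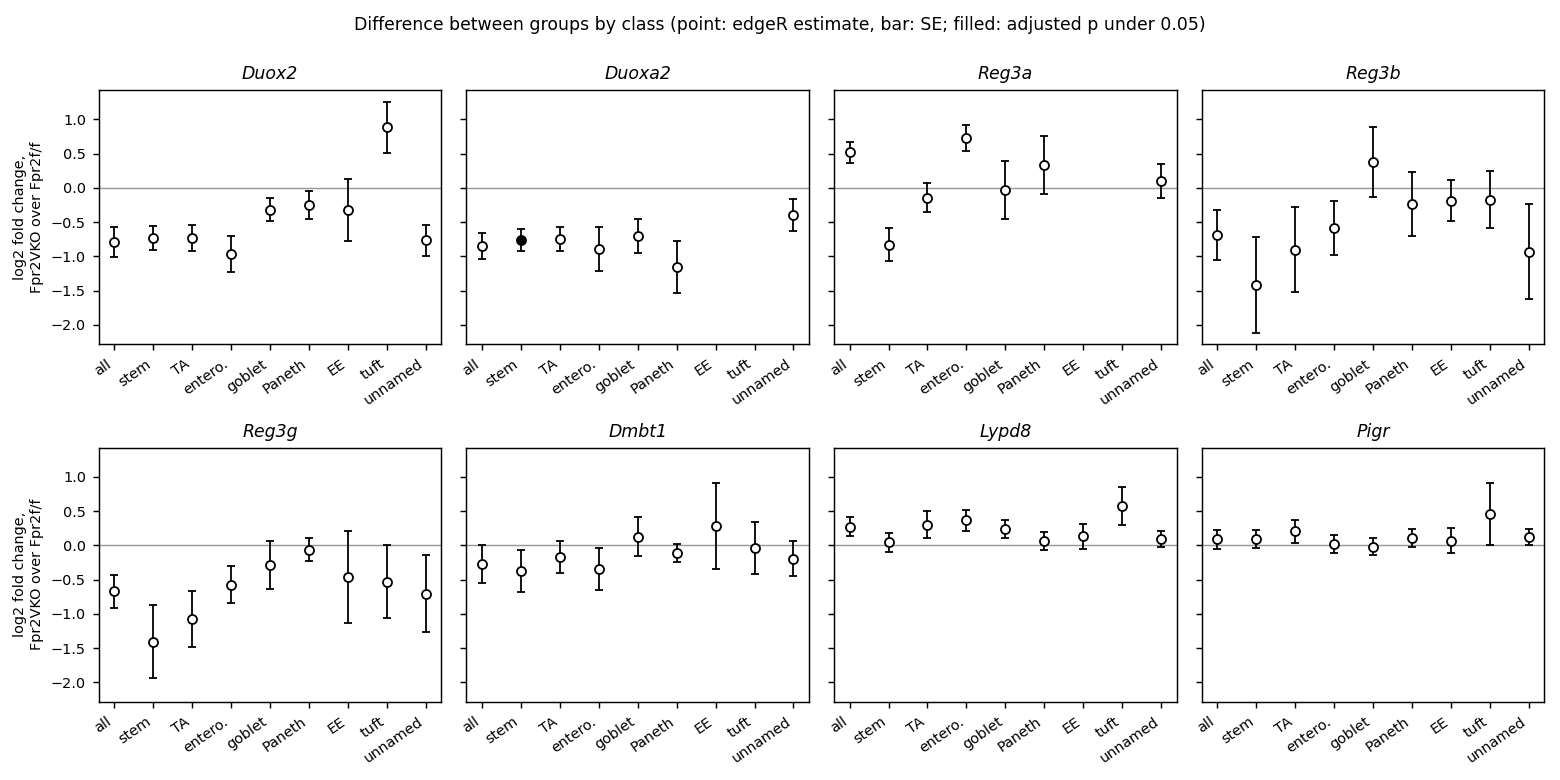
Log2 fold change (Fpr2VKO over Fpr2f/f, edgeR) of 8 of the genes in all epithelial cells and in each class where the gene was tested, with the SE as error bar; a filled point has an adjusted p under 0.05. The 1 filled point is Duoxa2 in stem-like cells, at -0.76, and Duox2 and Duoxa2 lie below 0 in every tested class but tuft-like cells for Duox2.

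Of 73 other genes listed around these pathways, 0 passed the edgeR test at an adjusted p under 0.05 in any class or over all epithelial cells. The lists were chosen with earlier results of these data known, so the shares that follow are descriptions. In enterocyte-like cells 58 were tested and 10 had an unadjusted p under 0.05 (17.2%, against 9.33% of all genes tested), and DESeq2 called 1, the catalase gene Cat (log2 fold change 0.72, SE 0.14, adjusted p = 0.107 by edgeR). The share at that unadjusted threshold was highest in goblet-like cells, at 12 of 49 (24.5%, against 8.47% of all genes tested). It was 10 of 65 over all epithelial cells (15.4%, against 8.84%), 7 of 40 in unnamed cells (17.5%, against 7.44%), 7 of 51 in stem-like cells (13.7%, against 9.24%) and 6 of 44 in Paneth-like cells (13.6%, against 8.37%). It was nearer to that of all genes in TA-like cells at 5 of 52 (9.62%, against 9.07%) and in EE-like cells at 1 of 40 (2.5%, against 2.75%), and was 1 of 19 in tuft-like cells (5.26%, against 9.41%). DESeq2 called 2 over all epithelial cells, Cat and Nos2, 1 in TA-like cells, Cat, and 0 in the classes other than these and enterocyte-like cells. Of 16 other secreted antimicrobial proteins, 10 were tested in enterocyte-like cells, 6 with lower and 4 with higher estimates in Fpr2VKO, and their median log2 fold change was -0.24 against -0.01 over all genes. The one with most UMIs was Reg1, a lectin of the same family outside the Reg3 group, at 133, 178 and 40.1 CPM in the Fpr2f/f and 777, 1156 and 178 CPM in the Fpr2VKO libraries (log2 fold change 2.60, SE 1.00, adjusted p = 0.548), with no overlap and a wide spread within Fpr2VKO. The nearest libraries of the groups were equal at the digits given. Reg1 led cluster 10, whose share of enterocyte-like cells differed between the groups, and the part of that makeup in the Reg1 difference was not tested. Pglyrp1, a peptidoglycan recognition protein, stood at 188 CPM (log2 fold change -0.29, SE 0.12, adjusted p = 0.471). Nos2, inducible nitric oxide synthase, was 44.6, 48.5 and 41.5 CPM in the Fpr2f/f and 29.1, 15.1 and 33.2 CPM in the Fpr2VKO libraries (log2 fold change -0.81, SE 0.24, adjusted p = 0.376).

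Among 26 genes of cytokine and microbial sensing, 21 were tested in enterocyte-like cells and 13 had lower estimates (median -0.09). Nfkbiz, an inducible regulator of NF-kappaB targets, was 251 CPM (log2 fold change -0.09, SE 0.14, adjusted p = 0.873), the cytokine gene Il18 175 CPM (log2 fold change 0.36, SE 0.31, adjusted p = 0.771) and the inflammasome sensor Nlrp6 161 CPM (log2 fold change 0.09, SE 0.12, adjusted p = 0.861). Il22ra1 and Il10rb encode the subunits of the interleukin-22 receptor, and Socs3 is an inhibitor that cytokine signalling induces; these were picked from the list after their values were seen. Il22ra1 was 9.56, 14.3 and 7.23 CPM in the Fpr2f/f and 7.74, 5.93 and 4.01 CPM in the Fpr2VKO libraries (log2 fold change -0.81, SE 0.31, adjusted p = 0.453). Il10rb was 43.3, 33.2 and 46.8 CPM in the Fpr2f/f and 49.8, 45.9 and 53.6 CPM in the Fpr2VKO libraries (log2 fold change 0.29, SE 0.13, adjusted p = 0.525). Socs3 was 27.5, 27.6 and 18.2 CPM in the Fpr2f/f and 17.7, 15.4 and 11.2 CPM in the Fpr2VKO libraries (log2 fold change -0.71, SE 0.22, adjusted p = 0.376), lower in all 3 Fpr2VKO libraries. Of 10 oxidase partners and peroxide-handling genes, 8 were tested, 5 with lower estimates (median -0.16), and Gpx1 (log2 fold change 0.01, SE 0.16, adjusted p = 0.994), Gpx2 (log2 fold change -0.29, SE 0.14, adjusted p = 0.550) and Rac1 (log2 fold change 0.17, SE 0.13, adjusted p = 0.707) had most UMIs. Of 14 genes of immunoglobulin transport, 12 were tested, 4 with lower estimates (median 0.03), led by the motor Myo5b and the recycling GTPases Rab11a and Rab25 at 216, 182 and 164 CPM, whose groups overlapped. The 3 genes listed for the villus bottom (Ccl25, Il18 and Nlrp6) had 3 higher estimates (median 0.32), with Ccl25 at 652, 711 and 658 CPM in the Fpr2f/f and 856, 815 and 838 CPM in the Fpr2VKO libraries (log2 fold change 0.32, SE 0.12, adjusted p = 0.430). The 6 listed for the villus tip had 3 lower and 3 higher estimates (median -0.17), with most UMIs for Creb3l3, Apoa4 and Apobec1 at 90.9, 81.96 and 25.9 CPM.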

How the data were processed

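Per the labels and the study's methods, the authors dissociated ileal crypts with TrypLE, sorted EpCAM-positive cells, captured them on MobiNova-100 and aligned reads to mm10 with MobiVision 2.1. They deposited, for each of the 6 libraries, UMI counts per gene and barcode, raw and not normalized, and the submitters' processing notes also name Seurat 4.0. Free RNA was not removed, and whether counting used strand is not given in the sources used here. Barcodes needed at least 1000 UMIs, at least 500 genes and at most 20% mitochondrial UMIs (17104 barcodes), and 428 likely doublets were removed by comparison with artificial doublets, at 0.8% per 1000 cells. Cells were clustered on 30 principal components of 2000 variable genes (Leiden resolution 1, leidenalg 0.10.2), with the 9 genes and the pathway lists left out, and clusters were named from marker lists. These names are rebuilt and may differ from those of the study.

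Counts were summed per library and class (at least 20 cells), and the 3 Fpr2VKO libraries were compared with the 3 Fpr2f/f libraries by edgeR 4.0.16's quasi-likelihood test (TMM, filter on low counts, R 4.3.3) with Benjamini-Hochberg adjustment over all genes tested. The test was also run on counts simulated from a pooled profile with the same dispersion for every gene. Such counts cannot show how the test performs on these libraries. Labels give no more than a replicate number, so p-values measure the spread between these libraries. Shares of cells with a UMI were taken after thinning each cell to 2000 UMIs, which left out 576 enterocyte-like cells and kept 3493. Genes named from a pathway or villus list were the 3 with the highest mean CPM in enterocyte-like cells. Exceptions were genes that DESeq2 called and those said to be picked after their values were seen. The genes alike in pattern were the 3 with the highest Spearman's rho. Positions come from GENCODE vM21 (GRCm38). The members and lists were chosen with earlier results of these data known. Alternatives were another normalization (RLE), no filter on low counts, a replicate block, DESeq2 1.42.0, each library left out, other limits on mitochondrial share and UMIs, doublets kept and no alignment of libraries before clustering.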

Additional observations from a re-analysis of the deposited data

Results flagged for a closer look

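For Reg3a and Duox2, every Fpr2VKO library lay on one side of every Fpr2f/f library in 1 class and on the other side in another class. Reg3a was lower in Fpr2VKO stem-like cells (log2 fold change -0.83) and higher in Fpr2VKO enterocyte-like cells (0.72). Its stem-like levels were below the free RNA of their own library in 5 of 6 libraries. With 1 library left out the stem-like log2 fold change ran from -0.99 to -0.44. Duox2 was lower in Fpr2VKO TA-like cells (-0.74) and enterocyte-like cells (-0.96) and higher in Fpr2VKO tuft-like cells (0.89), where it rested on 98 UMIs in all and turned to -0.45 at a 40% mitochondrial limit. The share of tuft-like cells with a Duox2 UMI after thinning overlapped between the groups. None of these 5 differences passed the edgeR test at an adjusted p under 0.05, and the difference between the classes was not tested.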

How the results depend on the processing

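Counts of the 9 genes called at an adjusted p under 0.05 depended on the setting in 5 of the 9 comparisons. The share of all genes called moved too and stands in brackets. Over all epithelial cells the count was 0 (0.0182%), and 2 with no filter on low counts (0.567%), 2 with DESeq2 (0.336%) and 1 with a 10% mitochondrial limit (0.909%). In stem-like cells it was 1 (0.231%), and 3 with no filter (0.742%), 2 with DESeq2 (0.173%), 3 with doublets kept (9.09%), 0 to 2 with 1 library left out (2 when Fpr2f/f replicate 2 was dropped, 0.203%), and 0 with mitochondrial limits of 10% or 40%, at least 3000 UMIs or no alignment of libraries. In TA-like cells it was 0 (0.0314%), and 3 with no filter (0.97%) and 0 to 1 with 1 library left out (Duoxa2, when Fpr2f/f replicate 1 was dropped, where 6.55% of all genes were called). For enterocyte-like cells it was 0 (0.0164%), and 4 with no filter (0.989%), 3 with DESeq2 (0.243%) and 0 to 1 with 1 library left out (Duox2, when Fpr2f/f replicate 2 was dropped, 0.0411%). In unnamed cells it was 0 (0.12%), and 1 with no filter (0.256%) and 1 with doublets kept (0.249%). The cause was not tested. In Paneth-like, goblet-like, EE-like and tuft-like cells it was 0 under the alternatives run. Tuft-like cells at a 10% mitochondrial limit and at 3000 UMIs, and unnamed cells at 10%, left too few libraries and were not run.

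Over genes, the deviations of same-numbered libraries from their group means correlated at -0.047, -0.042 and 0.29. Those of differently numbered libraries ran from -0.19 to 0.19. With 3 libraries per group these values cannot decide whether the replicate numbers pair the libraries. With the replicate number as a block, 2 genes, Duox2 and Duoxa2, were called over all epithelial cells (0.293% of all genes), in stem-like cells (0.232%) and in TA-like cells (0.25%), and 1, Duox2, in enterocyte-like cells (0.15%).

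Some log2 fold changes changed sign. Over all epithelial cells Reg3a was -0.19, Pigr -0.17 and Lcn2 0.29 at the 10% mitochondrial limit, and with 1 library left out Dmbt1 ran from -0.52 to 0.040 and Pigr from -0.023 to 0.16. In enterocyte-like cells Pigr was -0.29 at 10%, -0.029 at 40% and -0.087 to 0.091 with 1 library left out, and Duoxa2 was 0.26 at 10%. Stem-like Reg3a was 0.027 with doublets kept. In TA-like cells Duoxa2 was 0.12 and Reg3g 0.49 at 10%. Tuft-like Duox2 was -0.45 at 40%. Paneth-like Reg3g was 0.0036 at 10%, 0.042 with no alignment and -0.15 to 0.050 with 1 library left out. The cause was not tested.

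With 1 library left out, the log2 excess in enterocyte-like cells was 4.66 to 5.08 for Reg3a, 4.16 to 4.31 for Reg3b, 3.07 to 3.15 for Reg3g, 1.72 to 1.88 for Dmbt1, 1.424 to 1.4999 for Pigr, 1.46 to 1.66 for Duox2, 1.69 to 1.78 for Duoxa2, 2.099 to 2.190 for Lypd8 and -0.016 to 0.17 for Lcn2. That of Lcn2 was also -0.014 at log2(CPM + 10), -0.28 at the 10% limit and -0.37 at 3000 UMIs.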
